A study of Mus musculus with 20 samples.

Results

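The comparison is between the distal colon (DC) of 5 mice fed with 10% resistant potato starch (RPS) and that of 5 mice fed with 0% RPS, 10 of the 20 mice sequenced. Members were chosen by the description label of each sample, which gives the RPS level beside the animal's own code: mice RS10_725, RS10_727, RS10_729, RS10_731 and RS10_784 at 10% RPS and mice RS10_701, RS10_703, RS10_704, RS10_707 and RS10_708 at 0% RPS. All mice were C57BL/6, were weaned onto the Total Western Diet (TWD), a diet that mimics the nutrient intake of a typical American, and ate it for 6 weeks before RPS was added by weight for a further 3 weeks. The 0% RPS mice stayed on the TWD, so the groups share strain, basal diet and duration and differ by the RPS. The other mice, 5 at 2% and 5 at 5% RPS, entered the model fit and are used only to set the called genes beside the lower levels. The treatment label of mouse RS10_725 reads 5% RPS where its description reads 10%. That of mouse RS10_748 reads 10% where its description reads 2%, and that of mouse RS10_717 reads 2% where its description reads 5%. Grouping by the treatment label therefore takes mouse RS10_725 out of the 10% RPS group and puts mouse RS10_748 into it.

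RPS is a starch granule that pancreatic amylase digests poorly. It reaches the large bowel and is fermented there by bacteria to short-chain fatty acids, of which butyrate is the main fuel of colonocytes. The distal colon is lined by absorptive colonocytes that mature as they climb from the crypt to the surface, with goblet, enteroendocrine and tuft cells between them. It recovers salt and water by electroneutral exchange of sodium and chloride for protons and bicarbonate and, under aldosterone, through the epithelial sodium channel. Below the epithelium lie plasma cells, lymphocytes, macrophages, fibroblasts, vessels, nerves and layers of smooth muscle, all of which were in the tissue that was sequenced. In such bulk tissue fewer cells of a type and less RNA per cell cannot be told apart.

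The deposited values were raw read counts per gene. Total counts lay from 31254832 to 34974230 at 0% RPS and from 18429493 to 26595092 at 10% RPS, so the depth of the groups did not overlap. Hoxb13, a homeobox gene that defines the most posterior gut, was at 386 to 579.7 CPM in all 10 libraries, CPM being counts of a gene per 1000000 counts of the library after scaling by the trimmed mean of M values (TMM). Features of single libraries move with some results below. Mouse RS10_703 at 0% RPS held the highest share of immunoglobulin counts of its group, 0.695% against 0.0721 to 0.147% in the other 4, while the 10% RPS mice held 0.286 to 0.642%. Mouse RS10_784 at 10% RPS held 90.7 CPM of the pancreatic lipase gene Pnlip and the other 9 libraries at most 0.538 CPM. Mouse RS10_727 at 10% RPS, with the lowest total count, lay nearest to the 0% RPS mice for many of the genes described. Across the exon length of genes, with genes in 5 equal bins, the median log2 fold change ran from -0.05 in the shortest bin to 0.01 in the longest, and its part in the results was not tested.

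Of 17893 genes tested with edgeR, 7 were called higher at 10% RPS (0.0391%) and 0 lower (0%), a call being an adjusted p of at most 0.05 and a fold change of at least 1.5. DESeq2 gave 139 genes as higher (0.800%) and 71 as lower (0.409%) of 17373 with an adjusted p, all 7 edgeR calls among them. At an edgeR adjusted p of at most 0.10 and the same fold, 65 genes were higher (0.363%) and 41 lower (0.229%), and in 54 of these 106 the groups did not overlap. At an unadjusted edgeR p of at most 0.05, the share was 7.32% higher and 7.87% lower (1310 and 1408 genes), and all 10% RPS mice lay above all 0% RPS mice in 203 genes (1.13%) and below them in 205 (1.15%). The median log2 fold change over all tested genes was -0.02, with 46.8% above 0. Leaving out 1 mouse moved the shares at an unadjusted p of at most 0.05 to between 5.10 and 9.69% higher and between 5.05 and 9.75% lower. They were 5.56% and 5.04% under the treatment label, and 7.33% and 5.63% without the 3 mice with disagreeing labels. Where such a change moved the count of a list by over 1.5 times, the count is given to be read against these shares. Mice joined by the word "or" were left out one at a time. Mice RS10_703 and RS10_725, where joined by the word "and", were left out together in 1 refit, as were the 3 mice with disagreeing labels. Below, a difference is given as the log2 fold change of 10% minus 0% RPS with its standard error (SE), and the words rose and fell are kept for genes that edgeR called.

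The 7 genes that rose stood apart in every mouse. Car4, which encodes the membrane carbonic anhydrase of surface colonocytes (ENSMUSG00000000805, chromosome 11, 84848020 to 84856879, + strand), measured 886, 1043, 1137, 1166 and 1348 CPM at 0% RPS and 1611, 1788, 1879, 1918 and 1927 CPM at 10% RPS. It rose by 0.71 ± 0.11 (SE, edgeR adjusted p = 0.0102). Abcg2, an ATP-driven exporter of drugs and urate in the apical membrane (ENSMUSG00000029802, chromosome 6, 58561505 to 58672661, + strand), measured 49.5, 55.1, 55.7, 59.8 and 62.8 CPM at 0% RPS and 78.4, 92.8, 93.8, 99.5 and 101 CPM at 10% RPS, and rose by 0.72 ± 0.11 (SE, edgeR adjusted p = 0.00929). The lowest 10% RPS mouse for both was RS10_727, and it still lay above the highest 0% RPS mouse.

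Rdh9, a retinol dehydrogenase gene (ENSMUSG00000056148, chromosome 10, 127612255 to 127628566, + strand), had the largest fold of the called genes. It measured 1.3, 1.58, 1.96, 2.13 and 3.04 CPM at 0% RPS and 4.46, 6.25, 6.28, 6.87 and 8.39 CPM at 10% RPS, and rose by 1.69 ± 0.27 (SE, edgeR adjusted p = 0.0102). Cpne2 encodes copine 2, a calcium-dependent phospholipid-binding protein (ENSMUSG00000034361, chromosome 8, 95259332 to 95297161, + strand). It measured 19.2, 22.1, 24.6, 26.5 and 27.1 CPM at 0% RPS and 31.9, 39.7, 46.9, 52.4 and 53.5 CPM at 10% RPS, and rose by 0.91 ± 0.16 (SE, edgeR adjusted p = 0.0155). Mgam2-ps, named as a pseudogene of a maltase-glucoamylase but annotated as coding, may share reads with its relatives (ENSMUSG00000102802, chromosome 6, 40755628 to 40845098, + strand). It measured 47.4, 47.5, 49.4, 52.8 and 61.5 CPM at 0% RPS and 75.3, 75.7, 81.8, 87.9 and 99.3 CPM at 10% RPS, and rose by 0.70 ± 0.11 (SE, edgeR adjusted p = 0.00929). Gm12056 makes a long non-coding transcript (ENSMUSG00000085803, chromosome 11, 22684038 to 22687937, + strand). It measured 0.696, 0.753, 0.839, 0.992 and 1.19 CPM at 0% RPS and 1.2, 1.9, 2.1, 2.82 and 3.37 CPM at 10% RPS. The gene rose by 1.35 ± 0.24 (SE, edgeR adjusted p = 0.0211), and the lowest 10% RPS mouse exceeded the highest 0% RPS mouse only narrowly.

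Irf1 was the single called gene of the immune lists. It encodes interferon regulatory factor 1, a transcription factor induced by interferon gamma and a driver of antigen presentation and GTPase genes (ENSMUSG00000018899, chromosome 11, 53660812 to 53669200, + strand). It measured 113, 120.1, 141, 148 and 148 CPM at 0% RPS and 175, 205, 206, 212 and 246 CPM at 10% RPS, and rose by 0.64 ± 0.10 (SE, edgeR adjusted p = 0.00929). All 5 mice at 10% RPS lay above the highest at 0% RPS. The edgeR calls of Abcg2, Car4, Mgam2-ps and Rdh9 held when any single mouse was left out, and Irf1 was not called without mouse RS10_784. Cpne2 was not called without mouse RS10_701, RS10_707, RS10_708, RS10_731 or RS10_784, nor Gm12056 without mouse RS10_701, RS10_708, RS10_729 or RS10_784. With groups taken from the treatment label, after removal of the 3 mice with disagreeing labels, or without mice RS10_703 and RS10_725, edgeR called 0 of the 7, and with only the 10 mice in the fit it called 3 of them, Abcg2, Mgam2-ps and Rdh9.

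**Figure D1:**
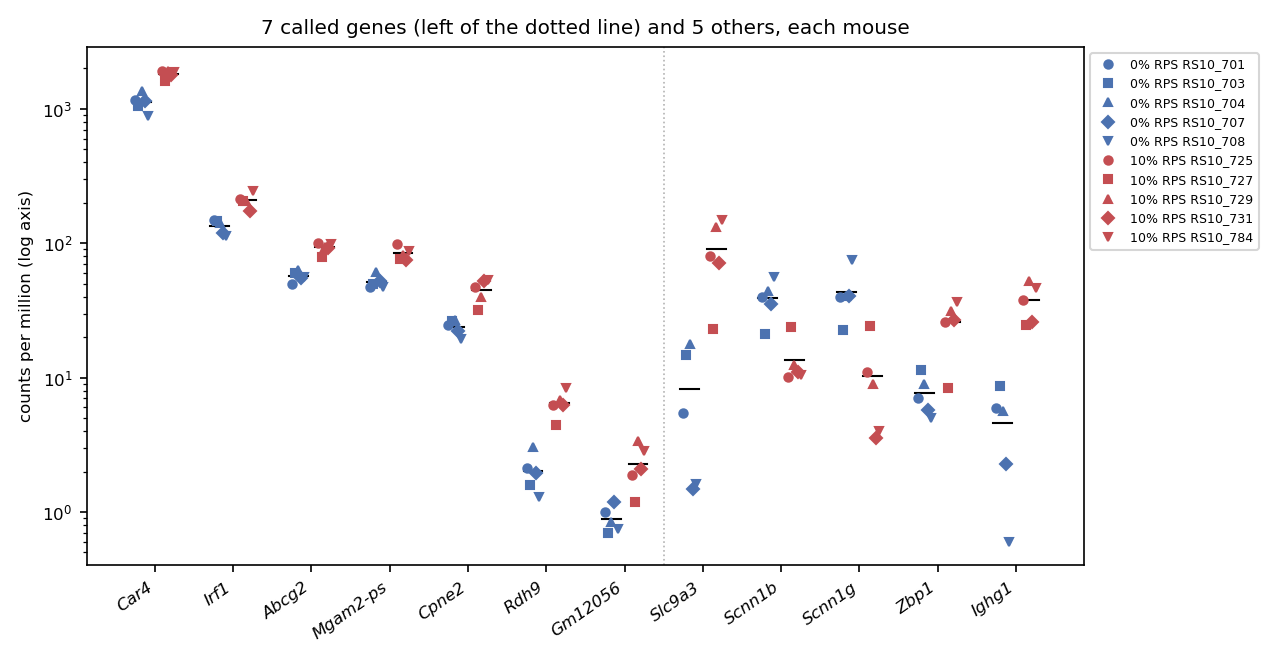
CPM (log axis) of 12 genes in each mouse at 0% RPS (blue) and 10% RPS (red), with 1 marker shape per mouse of a group and the group mean as a black bar. The 7 called genes, left of the dotted line, do not overlap between groups, while Scnn1b and Scnn1g overlap through mice RS10_703 and RS10_727, and Zbp1 through mouse RS10_727 at 10% RPS.

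The 7 genes were set beside the lower RPS levels in the same fit. In 10% against 2% RPS, edgeR called 4 genes (0.0224%), Abcg2 and Mgam2-ps of the 7 among them, with log2 fold changes of 0.63 and 0.62 (edgeR adjusted p = 0.0365 for both). The others were Slc26a3 and ENSMUSG00000085375, a gene without a symbol that was named after its value was seen. Irf1, Car4, Rdh9, Cpne2 and Gm12056 were higher than at 2% RPS by 0.53, 0.51, 1.51, 0.72 and 1.08, with edgeR adjusted p-values of 0.0561 to 0.114. Between 10% and 5% RPS there were 0 edgeR calls (0%), 1041 genes had an unadjusted p of at most 0.05, and DESeq2 was not run for this contrast. The 7 genes were higher than at 5% RPS by 0.24 (Abcg2) to 0.62 (Gm12056), with edgeR adjusted p-values of 0.841 to 0.882. These contrasts share the 10% RPS mice with the main one, and the 2% RPS group holds mouse RS10_748, whose treatment label reads 10%.

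Interferon-stimulated genes were higher at 10% RPS in a large share of the members measured. Type I interferons act on the interferon-stimulated response element (ISRE) of antiviral genes, and interferon gamma acts on the gamma-activated site (GAS). Of 46 type I interferon-stimulated genes tested, 24 were higher and 1 lower at an unadjusted edgeR p of at most 0.05, against 7.32% and 7.87% of all genes, and the median log2 fold change was 0.31. Of 25 genes of the interferon gamma response, 12 were higher and 0 lower, with a median of 0.43. DESeq2 called 8 of the first list and 3 of the second as higher, against 0.800% of all genes, and none as lower, against 0.409%. Irf1 was the sole edgeR call. The mean log2 CPM of the type I list was 3.58 to 4.06 at 0% RPS and 3.83 to 4.42 at 10% RPS, with 4 of 5 mice at 10% RPS above every 0% RPS mouse. Mouse RS10_703, the highest of the 0% RPS group, and mouse RS10_727, the lowest of the other group, closed the gap.

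The windows around the start of interferon genes that the counts turn on are shown with the letters of the GAS, TTCNNNGAA, and of the ISRE core, GAAA, any 2 bases and GAAA, in capitals, both searched on both strands. In Zbp1 a GAS match overlaps an ISRE match. Each window runs from 250 bases before to 50 bases after the canonical start in GENCODE vM39 and was read 5′ to 3′ on the gene's strand from GRCm39. Irf1 lies at chr11:53660591-53660890 (+ strand), Zbp1 at chr2:173060675-173060974 (- strand), Isg15 at chr4:156285254-156285553 (- strand) and Irgm2, an immunity-related GTPase gene named after its value was seen, at chr11:58090194-58090493 (+ strand).
Irf1: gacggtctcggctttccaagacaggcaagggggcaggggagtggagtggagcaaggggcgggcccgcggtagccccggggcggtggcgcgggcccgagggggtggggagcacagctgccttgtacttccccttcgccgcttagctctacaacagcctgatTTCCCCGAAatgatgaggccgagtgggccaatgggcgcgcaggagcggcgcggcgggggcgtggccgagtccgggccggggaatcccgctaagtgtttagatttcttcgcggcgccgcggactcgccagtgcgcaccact
Zbp1: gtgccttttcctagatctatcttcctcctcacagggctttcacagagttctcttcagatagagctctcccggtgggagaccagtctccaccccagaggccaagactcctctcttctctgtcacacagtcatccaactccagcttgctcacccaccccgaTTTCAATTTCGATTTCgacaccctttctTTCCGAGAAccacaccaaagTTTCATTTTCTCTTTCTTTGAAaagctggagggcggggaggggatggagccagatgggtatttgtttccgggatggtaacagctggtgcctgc
Isg15: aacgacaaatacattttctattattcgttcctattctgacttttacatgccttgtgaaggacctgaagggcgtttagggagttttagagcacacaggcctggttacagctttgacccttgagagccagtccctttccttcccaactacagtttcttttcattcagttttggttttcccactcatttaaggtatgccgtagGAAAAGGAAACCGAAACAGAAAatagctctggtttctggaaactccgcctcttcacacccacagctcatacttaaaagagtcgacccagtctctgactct
Irgm2: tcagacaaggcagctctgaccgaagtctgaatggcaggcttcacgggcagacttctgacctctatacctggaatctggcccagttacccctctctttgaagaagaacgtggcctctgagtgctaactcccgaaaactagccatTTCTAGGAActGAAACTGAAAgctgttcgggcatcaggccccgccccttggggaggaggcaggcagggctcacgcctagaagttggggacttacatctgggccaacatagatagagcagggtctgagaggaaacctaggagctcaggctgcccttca

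The called Irf1 held 1 GAS, which began 90 bases before its start, and no ISRE core. Zbp1 held 4 ISRE cores that began 91, 85, 43 and 37 bases before the start and 2 GAS. Isg15 held 3 overlapping ISRE cores, and Irgm2 held a GAS 107 bases and an ISRE core 96 bases before the start. Over the 17815 promoters of tested genes that were read, 3.67% held an ISRE core and 7.72% a GAS. In the type I list 23 of 46 promoters (50%) held an ISRE core and 8 (17.4%) a GAS, and in the interferon gamma list 13 of 25 (52%) and 10 (40%) did. Among the type I members that were higher at an unadjusted p of at most 0.05, 12 of 24 held an ISRE core, the same share as in the whole list. The windows of Mx1 and Irf7 held neither set of letters. A match is a description of the letters only.

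**Figure D2:**
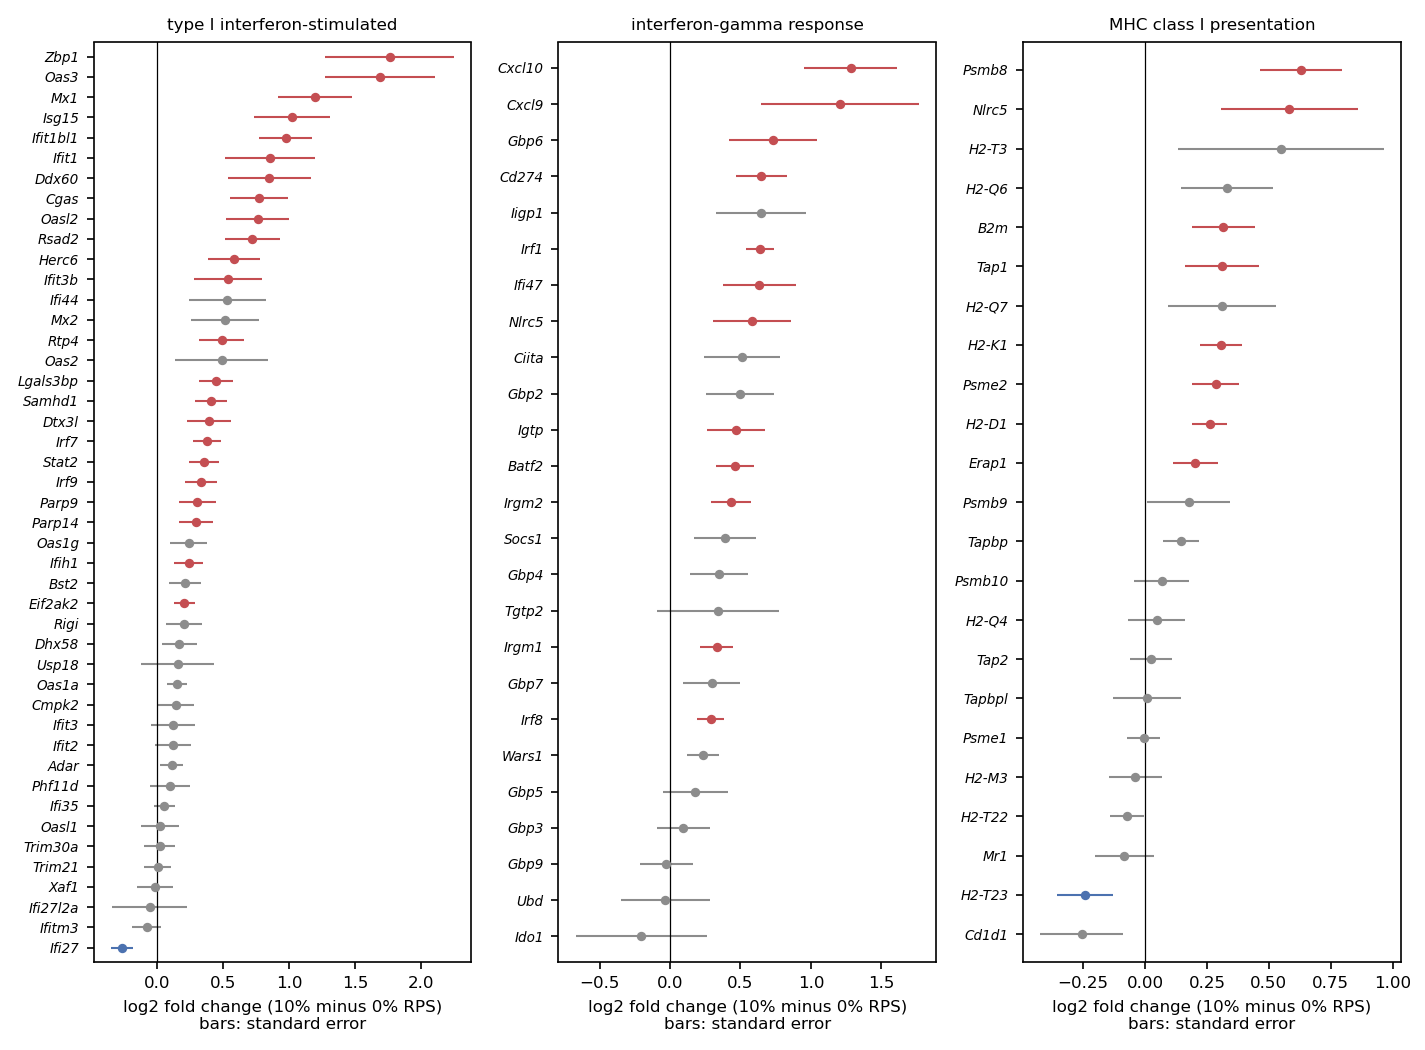
Log2 fold change (10% minus 0% RPS) of the tested members of the type I interferon-stimulated (1 not shown), interferon gamma and MHC class I lists, with bars of 1 SE. Red points are higher and blue points lower at an unadjusted edgeR p of at most 0.05. Zbp1 and Oas3 lie farthest to the right, and Ifi27 and H2-T23, both named after their values were seen, are the blue points.

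Among the antiviral effectors, Ifit1bl1, an IFIT family member with close relatives (ENSMUSG00000079339, chromosome 19, 34570291 to 34579356, - strand), measured 126, 163, 219, 231 and 236 CPM at 0% RPS and 297, 364, 397, 417 and 437 CPM at 10% RPS, a difference of 0.97 ± 0.20 (SE, edgeR adjusted p = 0.0659 and DESeq2 0.000425). Mx1, an interferon-stimulated gene of the dynamin-like GTPase family, measured 2.62, 2.68, 2.86, 4.57 and 4.84 CPM at 0% RPS and 5.22, 5.29, 8.39, 9.66 and 11.6 CPM at 10% RPS. It differed by 1.20 ± 0.28 (SE, edgeR adjusted p = 0.0794 and DESeq2 0.00383), and whether C57BL/6 mice make an active protein from it was not tested. For Ifit1bl1 and Mx1 the groups did not overlap. Oas3, which makes the 2-5A second messenger that activates RNase L, measured 0.934, 0.952, 1.33, 1.83 and 2.79 CPM at 0% RPS and 1.25, 4.33, 4.39, 7.17 and 7.96 CPM at 10% RPS. Its lowest 10% RPS value, in mouse RS10_727, lay among the 0% RPS mice, and the difference was 1.69 ± 0.42 (SE, edgeR adjusted p = 0.0861 and DESeq2 0.00398). Isg15, a ubiquitin-like modifier, averaged 3.22 ± 0.991 and 6.5 ± 3.33 CPM (SD, n = 5), a difference of 1.02 ± 0.29 (SE, edgeR adjusted p = 0.103 and DESeq2 0.0228).

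Sensors of nucleic acid and of bacterial products were next. Zbp1, a sensor of Z-form nucleic acid upstream of RIPK3, measured 5, 5.77, 7.08, 8.95 and 11.4 CPM at 0% RPS and 8.43, 26, 26.7, 31.2 and 36.8 CPM at 10% RPS. It differed by 1.76 ± 0.49 (SE, edgeR adjusted p = 0.113 and DESeq2 0.0171), and mouse RS10_727 at 8.43 CPM was the sole 10% RPS mouse within the 0% RPS range. Cgas, the DNA sensor, averaged 3.11 ± 0.744 and 5.3 ± 1.08 CPM (SD, n = 5) without overlap, a difference of 0.77 ± 0.22 (SE, edgeR adjusted p = 0.113 and DESeq2 0.0303). Casp4, the caspase that binds bacterial lipopolysaccharide in the cytosol, averaged 29.4 ± 6.5 and 55.7 ± 9.59 CPM (SD, n = 5) without overlap, a difference of 0.93 ± 0.19 (SE, edgeR adjusted p = 0.0659 and DESeq2 0.000767). Nlrp6, an epithelial inflammasome receptor, differed by 0.59 ± 0.19 (SE, edgeR adjusted p = 0.154 and DESeq2 0.0461). In the pattern recognition and cell death list, which also holds Toll-like receptors, 6 of 28 genes were higher and 0 lower at an unadjusted p of at most 0.05, with a median of 0.13.

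Regulators and signals of the response were measured beside these. Irf7, the amplifier of type I interferon, differed by 0.38 ± 0.10 (SE, edgeR adjusted p = 0.103 and DESeq2 0.0327), with a fold under 1.5. Cxcl10, a chemokine that draws CXCR3-bearing T cells, measured 0.435, 0.652, 1.11, 1.16 and 1.36 CPM at 0% RPS and 1.06, 1.32, 2.59, 3.03 and 3.59 CPM at 10% RPS, with mice RS10_731 and RS10_784 at 10% RPS within the 0% RPS range, a difference of 1.28 ± 0.33 (SE, edgeR adjusted p = 0.089 and DESeq2 0.012). Cd274, which encodes PD-L1, differed by 0.65 ± 0.18 (SE, edgeR adjusted p = 0.103 and DESeq2 0.0275), and Batf2 by 0.46 ± 0.14 (SE, edgeR adjusted p = 0.12 and DESeq2 0.0425). The GTPase gene Gbp2 averaged 36.6 ± 6.68 and 51.6 ± 14.3 CPM (SD, n = 5), a difference of 0.49 ± 0.24 (SE, edgeR adjusted p = 0.34). Ifi27, named after its value was seen, was the sole type I member at an unadjusted p of at most 0.05 in the other direction, at -0.27 ± 0.08 (SE, edgeR adjusted p = 0.136).

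Members of MHC class I presentation, which shows intracellular peptides to CD8+ T cells and is in part under IRF1 and NLRC5, were higher in 8 of 23 and lower in 1 at an unadjusted p of at most 0.05, with a median of 0.18. For class I presentation, higher members numbered 3 under the treatment label, 4 without mouse RS10_704 and 5 without mouse RS10_701, RS10_708 or RS10_725 or without the 3 mice with disagreeing labels. The immunoproteasome gene Psmb8 measured 17.9, 20.7, 22.4, 24.4 and 26.2 CPM at 0% RPS and 26.6, 30.7, 32.6, 36.1 and 46.5 CPM at 10% RPS, a difference of 0.63 ± 0.17 (SE, edgeR adjusted p = 0.0939 and DESeq2 0.0154). The heavy chain genes H2-K1 and H2-D1 averaged 628 ± 49.3 and 491 ± 22.1 CPM at 0% RPS and 776 ± 73.9 and 589 ± 40 CPM at 10% RPS (SD, n = 5), without overlap, with differences of 0.31 ± 0.09 and 0.26 ± 0.07 (SE, edgeR adjusted p = 0.103 and 0.0969). Class I genes share long stretches, so their reads may have been split. Beta-2 microglobulin, B2m, differed by 0.32 ± 0.13 (SE, edgeR adjusted p = 0.242). For MHC class II presentation, 0 of 12 genes had an unadjusted p of at most 0.05 in either direction, the median was 0.09, and H2-Aa and Cd74 differed by 0.06 ± 0.14 and 0.07 ± 0.14 (SE, edgeR adjusted p = 0.898 and 0.855). Whether the lists differ from each other was not tested.

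Over the 25 refits of the sensitivity analysis, 16 to 27 of the 46 type I genes and 5 to 17 of the 25 interferon gamma genes were higher. Under the treatment label the counts were 17 and 5, with medians of 0.22 and 0.23, against 5.56% of all genes. Without mouse RS10_703 they were 27 and 17, against 9.69% of all genes, and without mouse RS10_727 26 and 11, against 9.66%. Without the 3 mice with disagreeing labels they were 19 and 8, against 7.33% of all genes, and without mice RS10_703 and RS10_725 they were 26 and 11, against 8.52%.

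In the epithelium, genes of mature surface colonocytes were higher at 10% RPS. Of 23 tested genes of this list, 13 were higher and 0 lower at an unadjusted edgeR p of at most 0.05, with a median log2 fold change of 0.53. Car4 and Abcg2 were called higher by edgeR, against 0.0391% of all genes, and 6 genes by DESeq2, against 0.800%. Slc26a3, the chloride and bicarbonate exchanger of the surface membrane, measured 918, 945, 1185, 1221 and 1241 CPM at 0% RPS and 1506, 1544, 1600.0, 1732 and 1782 CPM at 10% RPS, and differed by 0.57 ± 0.10 (SE, edgeR adjusted p = 0.0155), short of the fold of 1.5 although its groups did not overlap. Aqp8, the water channel of surface cells, measured 275, 416, 419.6, 521 and 524 CPM at 0% RPS and 482, 686, 698, 790.0 and 799.6 CPM at 10% RPS, with only mouse RS10_731 within the 0% RPS range, and differed by 0.68 ± 0.17 (SE, edgeR adjusted p = 0.0882 and DESeq2 0.00883). Cdhr2, a protocadherin of the links between microvilli, differed by 0.35 ± 0.08 (SE, edgeR adjusted p = 0.0721), and Muc3a, a transmembrane mucin, by 0.73 ± 0.20 (SE, edgeR adjusted p = 0.113 and DESeq2 0.0182). Krt20, a keratin of terminally differentiated cells, and Clca4a, a surface chloride channel accessory protein, were named after their values had been seen. Krt20 measured 304, 386, 622, 643 and 873 CPM at 0% RPS and 849.9, 988, 1006, 1068 and 1387 CPM at 10% RPS, and Clca4a measured 28.4, 28.9, 187, 204 and 247 CPM at 0% RPS and 236, 243, 487, 499 and 826 CPM at 10% RPS. Mouse RS10_727 lay within the 0% RPS range for both, and mice RS10_707 and RS10_708 held the lowest values of both.

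The mean log2 CPM of the surface colonocyte list was 7.05 to 7.77 at 0% RPS and 7.66 to 8.30 at 10% RPS, with 4 of 5 mice above every 0% RPS mouse. The count of higher members was 12 to 16 over all refits, 12 under the treatment label, against 5.56% of all genes, and 13 without the 3 mice with disagreeing labels, against 7.33%. In the brush border list 5 of 13 genes were higher and 1 lower. For the brush border, higher members numbered 2 without mouse RS10_708 and 3 without mouse RS10_703 or RS10_784 or under the treatment label. Pls1, a microvillar actin bundler, differed by 0.53 ± 0.11 (SE, edgeR adjusted p = 0.0549 and DESeq2 0.00142), and Vil1, villin, by 0.24 ± 0.10 (SE, edgeR adjusted p = 0.256). Of 18 junction genes, 4 were higher and 0 lower, among them Cdh17, the liver-intestine cadherin, at 0.36 ± 0.10 (SE, edgeR adjusted p = 0.103), the claudin gene Cldn23 at 0.50 ± 0.17 (SE, edgeR adjusted p = 0.18) and Cldn15, a pore-forming claudin, at 0.61 ± 0.22 (SE, edgeR adjusted p = 0.207). The epithelial cadherin Cdh1 differed by 0.11 ± 0.07 (SE, edgeR adjusted p = 0.498).

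Salt absorption was examined by route. In the electrogenic list, which holds the epithelial sodium channel (ENaC) and the aldosterone response, 0 of 16 genes were higher and 5 lower at an unadjusted p of at most 0.05, with a median of -0.06. For this route, lower members numbered 2 under the treatment label and 3 without mouse RS10_708 or without the 3 mice with disagreeing labels. Scnn1b, the beta subunit of ENaC, measured 21.2, 35.5, 39.7, 43.8 and 55.6 CPM at 0% RPS and 10.2, 10.5, 10.9, 12.4 and 23.8 CPM at 10% RPS. Mouse RS10_727, at 23.8 CPM, and mouse RS10_703, at 21.2 CPM, were the sole overlap, and the difference was -1.54 ± 0.34 (SE, edgeR adjusted p = 0.0781 and DESeq2 0.00322). Scnn1g, the gamma subunit, measured 22.4, 40, 40.4, 40.4 and 75.2 CPM at 0% RPS and 3.53, 4.04, 9, 11 and 24.1 CPM at 10% RPS, a difference of -2.10 ± 0.57 (SE, edgeR adjusted p = 0.11 and DESeq2 0.0176), with the overlap in the same mice. Scnn1a, the alpha subunit, named after its value was seen, differed by 0.07 ± 0.10 (SE, edgeR adjusted p = 0.791). Fxyd4, a regulator of the sodium pump under corticosteroid control, averaged 126 ± 59.4 and 58.1 ± 35.6 CPM (SD, n = 5), a difference of -1.12 ± 0.45 (SE, edgeR adjusted p = 0.251), and Hsd11b2, which shields the mineralocorticoid receptor from glucocorticoid, differed by -0.32 ± 0.11 (SE, edgeR adjusted p = 0.162). The mineralocorticoid receptor gene Nr3c2 and the aldosterone-induced kinase gene Sgk1, also named after their values were seen, differed by 0.17 ± 0.10 and -0.09 ± 0.44 (SE, edgeR adjusted p = 0.409 and 0.945).

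In the electroneutral list, 8 of 21 genes were higher and 2 lower, with a median of 0.12. In 6 genes every 10% RPS mouse lay above every 0% RPS mouse, against 1.13% of all genes. Slc9a3 encodes NHE3, the apical sodium and proton exchanger (ENSMUSG00000036123, chromosome 13, 74269360 to 74317561, + strand). It measured 1.49, 1.63, 5.44, 14.8 and 17.8 CPM at 0% RPS and 23, 71, 79.8, 133 and 148 CPM at 10% RPS, and differed by 3.47 ± 0.79 (SE, edgeR adjusted p = 0.0821 and DESeq2 0.000917). Both groups were spread widely, with mice RS10_707 and RS10_708 lowest and mice RS10_729 and RS10_784 highest, but did not overlap. Its scaffold Nherf1 and the exchanger Slc9a2, named after their values were seen, differed by 0.49 ± 0.12 and 0.32 ± 0.12 (SE, edgeR adjusted p = 0.0861 and 0.204). Ano9, an anoctamin, averaged 59.4 ± 3.74 and 86.1 ± 10.8 CPM (SD, n = 5), a difference of 0.54 ± 0.08 (SE, edgeR adjusted p = 0.00929), under the fold of 1.5. Best2, the bicarbonate channel of goblet cells, averaged 81.8 ± 21.7 and 48.7 ± 7.6 CPM (SD, n = 5), a difference of -0.75 ± 0.15 (SE, edgeR adjusted p = 0.0659 and DESeq2 0.00128). Aqp4, the basolateral water channel, measured 35.2, 39.5, 49.4, 65.8 and 79.3 CPM at 0% RPS and 72.4, 114, 133, 242 and 260.2 CPM at 10% RPS, a difference of 1.61 ± 0.47 (SE, edgeR adjusted p = 0.124 and DESeq2 0.0275).

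Markers of position along the colon differed beside these transporters. Hoxb13 measured 446, 483, 541, 552 and 579.7 CPM at 0% RPS and 386, 392, 414, 439 and 439 CPM at 10% RPS, and differed by -0.33 ± 0.09 (SE, edgeR adjusted p = 0.0941 and DESeq2 0.0275). Cdx2, an intestinal homeobox gene that is highest in the proximal colon, measured 5.77, 6.06, 11, 11.4 and 23.4 CPM at 0% RPS and 23.7, 25.1, 28, 38.7 and 40.9 CPM at 10% RPS, and differed by 1.44 ± 0.44 (SE, edgeR adjusted p = 0.139 and DESeq2 0.0389). In neither gene did the groups overlap, and mouse RS10_703, which held the lowest Hoxb13 and the highest Cdx2 at 0% RPS, also held the lowest Scnn1b and Scnn1g of its group. Over the whole position list of 11 genes, 2 were higher and 1 lower, the median was -0.07, and the mean log2 CPM was 5.61 to 5.85 at 0% RPS and 5.64 to 5.81 at 10% RPS. Hoxd13 and Hoxa13 differed by -0.11 ± 0.24 and -0.07 ± 0.11 (SE, edgeR adjusted p = 0.874 and 0.818). The part of position in the transporter differences was not tested.

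**Figure D3:**
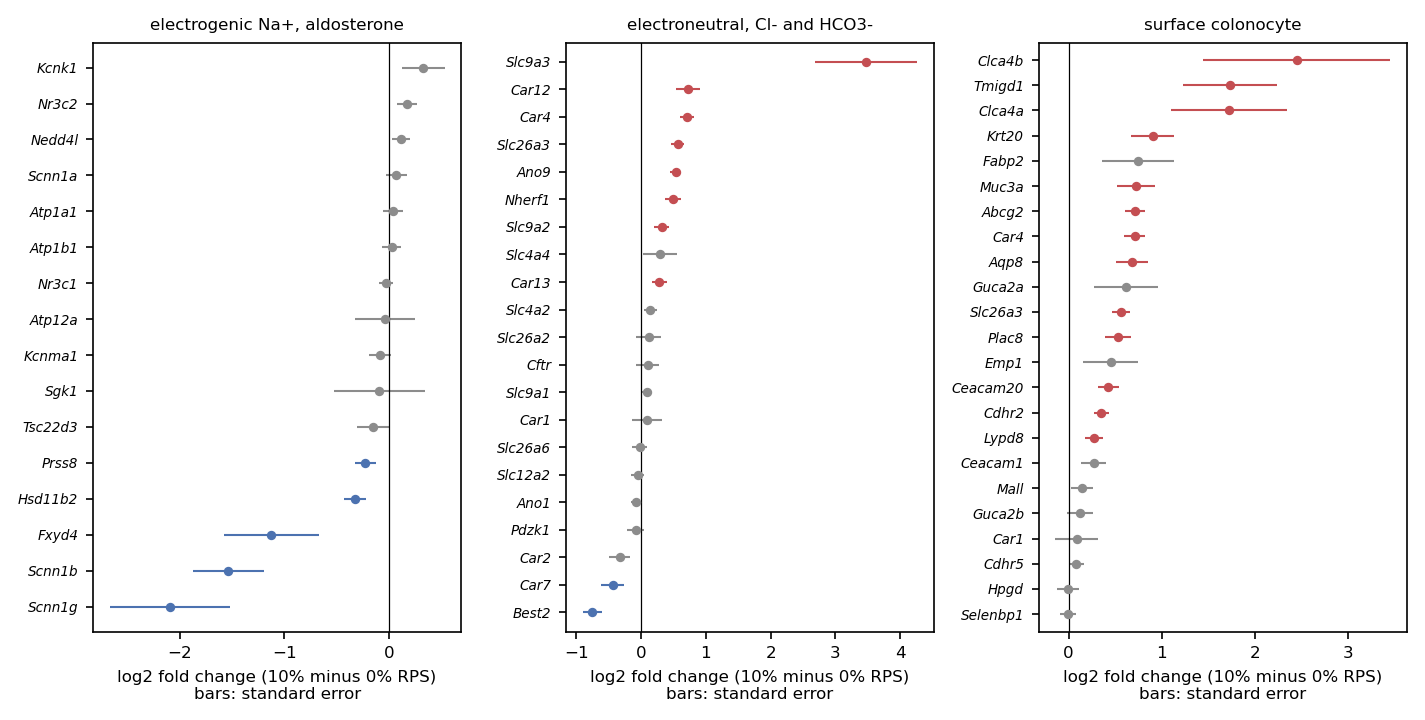
Log2 fold change (10% minus 0% RPS) of every tested member of the electrogenic, electroneutral and surface colonocyte lists, with bars of 1 SE. Red points are higher and blue points lower at an unadjusted edgeR p of at most 0.05. Scnn1g and Scnn1b lie farthest to the left, Slc9a3 stands farthest to the right of its panel, and the surface colonocyte panel holds no blue point.

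Mucins of the surface glycocalyx and the enzymes that glycosylate them were higher in 11 of 32 genes and lower in 1, with a median of 0.17. For this mucin list, higher members numbered 17 without mouse RS10_727. Muc12 and Muc17 differed by 0.68 ± 0.21 and 0.37 ± 0.12 (SE, edgeR adjusted p = 0.125 and 0.14), Muc13 by 0.39 ± 0.14 (SE, edgeR adjusted p = 0.21), and B3galt5, a galactosyltransferase, by 0.58 ± 0.15 (SE, edgeR adjusted p = 0.0969 and DESeq2 0.0184). Mucin repeats share sequence, so these counts are uncertain. Of 21 goblet cell genes, 2 were higher and 1 lower. For goblet cells, higher members numbered 4 without mouse RS10_725 or without the 3 mice with disagreeing labels and 5 without mouse RS10_727. The secreted mucin Muc2 averaged 2495 ± 505 and 3106 ± 869.9 CPM (SD, n = 5), a difference of 0.32 ± 0.15 (SE, edgeR adjusted p = 0.337), and the trefoil factor Tff3 differed by -0.22 ± 0.14 (SE, edgeR adjusted p = 0.486). Clca1, a protease of the mucus layer, differed by 0.76 ± 0.25 (SE, edgeR adjusted p = 0.16 and DESeq2 0.0416).

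In the list of antimicrobial and oxidant defence, 8 of 24 genes were higher and 4 lower, with a median of 0.28. For this defence list, higher members numbered 5 under the treatment label. The mean log2 CPM of the list was 4.28 to 4.63 at 0% RPS and 4.8 to 5.36 at 10% RPS, so all 5 mice at 10% RPS lay above all at 0% RPS. This mean gives low genes such as Reg3g and Ang4 the same weight as abundant ones. The summed CPM of the list overlapped, at 15700 to 17200 at 0% RPS and 16300 to 21100 at 10% RPS. Duox2, the epithelial source of hydrogen peroxide, measured 58.4, 75.8, 76.4, 83 and 109.6 CPM at 0% RPS and 102, 105, 112, 205 and 216 CPM at 10% RPS, a difference of 0.88 ± 0.24 (SE, edgeR adjusted p = 0.103 and DESeq2 0.00918). Reg3g, a bactericidal lectin, was low throughout, at 0.0301, 0.0316, 0.0621, 0.149 and 0.283 CPM and 0.327, 0.427, 0.456, 0.893 and 1.02 CPM in turn, a difference of 2.43 ± 0.59 (SE, edgeR adjusted p = 0.0821 and DESeq2 0.00883). The 3 lowest of its 0% RPS values lie below the 3-count floor of 0.0850 to 0.0949 CPM. Ang4, an angiogenin with near-identical relatives, measured 0.149, 0.19, 0.241, 0.68 and 1.83 CPM at 0% RPS and 0.235, 2.56, 3.84, 8.22 and 15.6 CPM at 10% RPS, with mice RS10_725 and RS10_727 highest and mouse RS10_784 within the 0% RPS range. Its difference was 3.29 ± 1.36 (SE, edgeR adjusted p = 0.263). In the other direction, the gasdermin gene Gsdmc3 averaged 386 ± 81.9 and 242 ± 62.5 CPM (SD, n = 5), a difference of -0.67 ± 0.15 (SE, edgeR adjusted p = 0.0734 and DESeq2 0.00509), and the acute-phase gene Saa2 differed by -1.20 ± 0.39 (SE, edgeR adjusted p = 0.151) without overlap. Pla2g2a, the gene of a secreted phospholipase with bactericidal action, differed by 2.38 ± 0.69 (SE, edgeR adjusted p = 0.12 and DESeq2 0.0318). Whether mice of this strain make an active enzyme from its transcript was not tested.

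Metabolic groups were mixed. In cholesterol synthesis, 23 of 24 genes had a positive log2 fold change, 8 were higher at an unadjusted p of at most 0.05 and the median was 0.54, but neither edgeR nor DESeq2 called a member. Sqle, squalene epoxidase, averaged 74 ± 27.1 and 123 ± 49.5 CPM (SD, n = 5), a difference of 0.73 ± 0.31 (SE, edgeR adjusted p = 0.277). The list score was 5.42 to 6.55 at 0% RPS and 5.37 to 6.86 at 10% RPS, with mouse RS10_704 high among the 0% RPS mice and mouse RS10_727 lowest of all. In this list, higher members numbered 1 without mouse RS10_701, RS10_703, RS10_707, RS10_729 or RS10_731, 2 without mouse RS10_708 or RS10_784, 13 without mouse RS10_725, 17 without mouse RS10_727 and 18 without mouse RS10_704. The shares of all genes were 9.69% without mouse RS10_703 and 9.66% without mouse RS10_727. Srebf2, the transcription factor of the pathway, differed by 0.36 ± 0.13 (SE, edgeR adjusted p = 0.182).

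Steroid enzymes went both ways. Cyp11a1, which cleaves the cholesterol side chain to start steroid synthesis, measured 0.38, 1.43, 2.92, 9.25 and 9.97 CPM at 0% RPS and 0.152, 0.272, 0.349, 0.353 and 0.725 CPM at 10% RPS, a difference of -3.68 ± 0.82 (SE, edgeR adjusted p = 0.0781 and DESeq2 0.000767). Mouse RS10_703 lay within the 10% RPS range and mice RS10_707 and RS10_708 held the highest values. Hsd3b3 and Akr1b7, a later dehydrogenase and an aldo-keto reductase, were higher, by 0.88 ± 0.22 and 1.06 ± 0.25 (SE, edgeR adjusted p = 0.0861 and 0.0781, DESeq2 0.0066 and 0.0057). In retinoid metabolism 3 of 23 genes were higher and 3 lower. For retinoid genes, higher members numbered 5 without mouse RS10_703. Beside the called Rdh9, Dhrs9, which oxidises retinol, averaged 2.05 ± 1.38 and 8.47 ± 4.85 CPM (SD, n = 5), a difference of 2.05 ± 0.64 (SE, edgeR adjusted p = 0.144 and DESeq2 0.0416), while the retinol carrier gene Rbp4 differed by -0.54 ± 0.16 (SE, edgeR adjusted p = 0.122) and the receptor gene Rarg by -0.27 ± 0.09 (SE, edgeR adjusted p = 0.148). Of 28 lipid genes 5 were higher and 1 lower. For lipid handling, higher members numbered 9 without mouse RS10_727. Fa2h, fatty acid 2-hydroxylase, and Pla2g3, a secreted phospholipase, differed by 0.87 ± 0.20 and 0.95 ± 0.25 (SE, edgeR adjusted p = 0.0821 and 0.093, DESeq2 0.00322 and 0.00725).

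Of 40 drug metabolism genes, 10 were lower and 5 higher, with a median of -0.10. For drug metabolism, higher members numbered 3 under the treatment label and 9 without mouse RS10_727, and lower members numbered 4 under the treatment label, 5 without mouse RS10_708 or without the 3 mice with disagreeing labels and 6 without mouse RS10_725. Sult1c2, a sulfotransferase, and Ces2b, a carboxylesterase, differed by -0.72 ± 0.15 and -1.38 ± 0.38 (SE, edgeR adjusted p = 0.0659 and 0.103, DESeq2 0.00334 and 0.0301), while Sult1b1 differed by 0.35 ± 0.09 (SE, edgeR adjusted p = 0.0861). Carboxylesterases are a family of close copies and their counts are uncertain. In amino acid handling 8 genes were higher and 7 lower of 30. For amino acid handling, higher members numbered 5 without mouse RS10_707. Oplah, 5-oxoprolinase of the glutathione cycle, differed by -0.61 ± 0.12 (SE, edgeR adjusted p = 0.0539 and DESeq2 0.00134). Gchfr, the regulator of tetrahydrobiopterin synthesis, differed by 0.92 ± 0.20 (SE, edgeR adjusted p = 0.0659 and DESeq2 0.00155).

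Of 18 sugar genes, 5 were higher and 3 lower. For sugar genes, higher members numbered 3 without mouse RS10_701, RS10_707 or RS10_729 or under the treatment label. Slc13a2, a citrate and succinate transporter, averaged 67.9 ± 12.6 and 129 ± 34 CPM (SD, n = 5) without overlap, a difference of 0.93 ± 0.21 (SE, edgeR adjusted p = 0.0821 and DESeq2 0.00218). Hk2, a hexokinase, differed by 0.73 ± 0.24 (SE, edgeR adjusted p = 0.16 and DESeq2 0.0387) and Khk, ketohexokinase, by -0.52 ± 0.15 (SE, edgeR adjusted p = 0.12 and DESeq2 0.0466). Hkdc1, a gene related to Hk2, went the other way, at -1.53 ± 0.485 (SE, edgeR adjusted p = 0.147). Of 8 bile acid genes, 2 were higher and 2 lower. For bile acids, higher members numbered 4 without mouse RS10_707. Baat, which conjugates bile acids to taurine or glycine, measured 1.81, 2.17, 3.1, 3.17 and 3.21 CPM at 0% RPS and 3.97, 6.43, 7.85, 10.9 and 11.7 CPM at 10% RPS, a difference of 1.60 ± 0.33 (SE, edgeR adjusted p = 0.0659 and DESeq2 0.000409), while Slc10a2, the sodium-dependent bile acid importer, averaged 16.6 ± 4.65 and 8.3 ± 2.8 CPM (SD, n = 5) without overlap, a difference of -1.0 ± 0.38 (SE, edgeR adjusted p = 0.22). Among metal and calcium genes, 3 of 21 were higher and 4 lower. For metals, higher members numbered 5 without mouse RS10_727 and 6 without mouse RS10_703, and lower members numbered 2 without mouse RS10_708 or under the treatment label. The ferroxidase gene Heph differed by 0.52 ± 0.10 (SE, edgeR adjusted p = 0.0438), under the fold of 1.5, and the magnesium channel gene Trpm6 by 0.61 ± 0.16 (SE, edgeR adjusted p = 0.093 and DESeq2 0.0129). The metallothionein gene Mt1 measured 63, 90.2, 92.8, 199.5 and 256 CPM at 0% RPS and 29.1, 46.3, 48, 55.5 and 68.5 CPM at 10% RPS, a difference of -1.51 ± 0.40 (SE, edgeR adjusted p = 0.103 and DESeq2 0.015), with mouse RS10_703 within the 10% RPS range.

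Of 21 genes of short-chain fatty acid transport, oxidation and ketone synthesis, 3 were higher and 1 lower, against 7.32% and 7.87% of all genes, and the median was 0.05. The monocarboxylate transporter genes Slc5a8 and Slc16a1 and their chaperone Bsg differed by 0.30 ± 0.10, 0.19 ± 0.08 and 0.16 ± 0.07 (SE, edgeR adjusted p = 0.183, 0.275 and 0.263). In nuclear-encoded oxidative phosphorylation 0 of 49 genes were higher and 5 lower, with a median of -0.08. For oxidative phosphorylation, lower members numbered 2 without mouse RS10_708 or RS10_731 or under the treatment label, 3 without mouse RS10_725 or without the 3 mice with disagreeing labels, 8 without mouse RS10_727, 11 without mouse RS10_729 and 13 without mouse RS10_703. The 13 mitochondrially encoded genes had a median of -0.06 and none at an unadjusted p of at most 0.05 in edgeR, nor a DESeq2 call.

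Proliferation genes were uneven. Of 32 cell cycle genes, 8 were higher and 0 lower, while the median was 0.01. Mcm2, a subunit of the replicative helicase, measured 14.7, 15.8, 26.9, 27.3 and 29.7 CPM at 0% RPS and 30.2, 30.9, 38, 45.5 and 49 CPM at 10% RPS, a difference of 0.76 ± 0.23 (SE, edgeR adjusted p = 0.127 and DESeq2 0.0281). Mcm4 and Mcm6 differed by 0.62 ± 0.20 and 0.83 ± 0.26 (SE, edgeR adjusted p = 0.145 and 0.148), and the replication clamp gene Pcna by 0.55 ± 0.16 (SE, edgeR adjusted p = 0.122). Mki67 and Top2a, which peak in mitosis, differed by -0.06 ± 0.32 and 0.07 ± 0.32 (SE, edgeR adjusted p = 0.948 and 0.941). Whether licensing and mitotic genes differ was not tested. Among 20 stem cell and Wnt target genes, Prom1 was the sole one at an unadjusted p of at most 0.05, at 0.97 ± 0.27 (SE, edgeR adjusted p = 0.103 and DESeq2 0.00806), and the stem cell markers Lgr5 and Ascl2 differed by 0.08 ± 0.18 and -0.14 ± 0.26 (SE, edgeR adjusted p = 0.882 and 0.846).

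Of the rarer epithelial types, enteroendocrine cells showed 1 of 17 genes higher and 1 lower. Pyy, a hormone of L cells that slows transit and appetite, measured 55.6, 68.8, 69.8, 78.1 and 82 CPM at 0% RPS and 87.5, 99.8, 100.2, 116 and 133 CPM at 10% RPS, without overlap, a difference of 0.60 ± 0.12 (SE, edgeR adjusted p = 0.0593 and DESeq2 0.00142). Gcg, the proglucagon gene of the same cells, differed by 0.67 ± 0.32, Insl5 by 0.50 ± 0.27 and the granule marker Chga by -0.27 ± 0.12 (SE, edgeR adjusted p = 0.336, 0.388 and 0.278). In tuft cells 0 of 16 genes were higher and 1 lower, and Dclk1 and Trpm5 differed by 0.29 ± 0.15 and 0.34 ± 0.29 (SE, edgeR adjusted p = 0.355 and 0.61).

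Antibody genes varied widely within both groups, and edgeR called none. Of 11 constant region genes 4 were higher and 0 lower, with a median of 0.96, and of 131 variable segments 28 were higher and 4 lower, with a median of 0.72. The mean log2 CPM of the variable segments was -1.36 to 1.42 at 0% RPS and -0.06 to 0.99 at 10% RPS, with 0 of 5 mice at 10% RPS above every 0% RPS mouse. Without mouse RS10_703 the medians were 1.95 and 1.71, with 6 constant region genes higher, against 9.69% of all genes, and under the treatment label the medians were 0.42 and 0.49. Among constant region genes, higher members numbered 1 under the treatment label and 2 without the 3 mice with disagreeing labels. Among variable segments, higher members numbered 15 under the treatment label and 54 without mouse RS10_703, and lower members numbered 0 without mouse RS10_703 and 1 without mouse RS10_729, RS10_731 or RS10_784 or without the 3 mice with disagreeing labels. Ighg1, the constant region of IgG1 (ENSMUSG00000076614, chromosome 12, 113288860 to 113294143, - strand), measured 0.603, 2.29, 5.65, 5.89 and 8.61 CPM at 0% RPS and 24.8, 25.9, 37.6, 46.8 and 52.5 CPM at 10% RPS, without overlap, a difference of 3.03 ± 0.71 (SE, edgeR adjusted p = 0.0837 and DESeq2 0.00202). Igha, the constant region of the dominant mucosal isotype IgA, measured 353, 558, 616, 653 and 3308 CPM at 0% RPS and 1407, 1452, 1987, 2370.0 and 3434 CPM at 10% RPS, so mouse RS10_703 reached the level of the highest 10% RPS mouse, and the difference was 0.96 ± 0.53 (SE, edgeR adjusted p = 0.41). Jchain, which joins IgA dimers, measured 67.7, 108, 109, 145 and 623 CPM at 0% RPS and 302, 320.1, 441, 470.4 and 720.6 CPM at 10% RPS, a difference of 1.10 ± 0.53 (SE, edgeR adjusted p = 0.338). The variable segments with the largest differences and no overlap were Ighv9-3, Igkv6-25, Igkv4-57 and Ighv1-81, at 3.44, 3.41, 3.16 and 2.91 (edgeR adjusted p = 0.103, 0.0659, 0.116 and 0.0869). Segments are close copies of one another, so reads could be split among them.

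Plasma cell genes other than immunoglobulins were higher in 7 of 14 and lower in 0, with a median of 0.69. Cd38, an ectoenzyme that epithelial and myeloid cells also express, measured 124, 134, 153, 181 and 183 CPM at 0% RPS and 162, 278, 289, 329.9 and 368 CPM at 10% RPS, with only mouse RS10_727 within the 0% RPS range, a difference of 0.88 ± 0.22 (SE, edgeR adjusted p = 0.0861 and DESeq2 0.005). Tnfrsf17, the plasma cell survival receptor BCMA, averaged 0.912 ± 0.641 and 2.12 ± 0.58 CPM (SD, n = 5), a difference of 1.22 ± 0.34 (SE, edgeR adjusted p = 0.103 and DESeq2 0.0279), and Irf4, the plasma cell transcription factor, differed by 0.80 ± 0.27 (SE, edgeR adjusted p = 0.164). The list score was 2.81 to 4.14 at 0% RPS and 3.64 to 4.31 at 10% RPS. Without mouse RS10_703 the number of higher members was 9 and the median 0.99, against 9.69% of all genes, and under the treatment label they were 3 and 0.48, against 5.56%. Without mouse RS10_708 or RS10_729 the number of higher members was 4. All 19 B cell genes had a positive log2 fold change with a median of 0.47, but 1 reached an unadjusted p of at most 0.05, and Ms4a1, a B cell surface protein gene, differed by 0.62 ± 0.42 (SE, edgeR adjusted p = 0.506).

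T cell and innate lymphoid genes were examined as 1 list, with 2 of 30 higher and 1 lower and a median of -0.09. For these lymphoid genes, higher members numbered 5 without mouse RS10_703. Foxp3, the factor of regulatory T cells, averaged 0.275 ± 0.147 and 0.509 ± 0.216 CPM (SD, n = 5), a difference of 0.91 ± 0.38 (SE, edgeR adjusted p = 0.255), and the T cell receptor genes Cd3e and Cd3g differed by -0.34 ± 0.28 and 0.59 ± 0.27 (SE, edgeR adjusted p = 0.605 and 0.3). Of 26 macrophage and dendritic cell genes, 0 were higher and 6 lower at an unadjusted p of at most 0.05, with a median of -0.12 and 10 positive values. Without mouse RS10_703 2 were higher and 4 lower. For this list, lower members numbered 2 without mouse RS10_708 and 3 without mouse RS10_729. Cd68, a lysosomal protein of macrophages, measured 8.04, 8.87, 10.1, 13.1 and 17.7 CPM at 0% RPS and 6.71, 6.95, 7.99, 8.23 and 8.27 CPM at 10% RPS, a difference of -0.60 ± 0.17 (SE, edgeR adjusted p = 0.103 and DESeq2 0.0326). The complement gene C1qc, the fractalkine receptor gene Cx3cr1 and the colony-stimulating factor receptor gene Csf1r differed by -0.43 ± 0.16, -0.43 ± 0.15 and -0.31 ± 0.14 (SE, edgeR adjusted p = 0.193, 0.189 and 0.293). Adgre1, an adhesion receptor of macrophages, differed by -0.40 ± 0.20 (SE, edgeR adjusted p = 0.337).

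Of 32 chemokine, cytokine and SOCS genes, 8 were higher and 3 lower, with a median of 0.21. Socs3, a feedback inhibitor of STAT3 signalling, measured 5.58, 7.27, 7.29, 8.16 and 8.66 CPM at 0% RPS and 9.9, 10.8, 15.7, 31 and 41.6 CPM at 10% RPS, without overlap, a difference of 1.56 ± 0.54 (SE, edgeR adjusted p = 0.183), with mice RS10_725 and RS10_784 far above the others. Cxcl1, a neutrophil chemokine, averaged 0.635 ± 0.162 and 1.5 ± 0.25 CPM (SD, n = 5) without overlap, a difference of 1.23 ± 0.43 (SE, edgeR adjusted p = 0.181), and Il18 differed by 0.34 ± 0.10 (SE, edgeR adjusted p = 0.122). In the granulocyte and mast cell list all 10 tested genes had a positive log2 fold change, with a median of 0.57, and 2 were higher at an unadjusted p of at most 0.05. These were Ly6g at 0.55 ± 0.26 (SE, edgeR adjusted p = 0.32) and the mast cell protease gene Mcpt1 at 0.95 ± 0.45 (SE, edgeR adjusted p = 0.318). The neutrophil gene S100a8 did not pass the filter on low counts.

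In the stroma edgeR called no member of any list, and DESeq2 called 1 as higher, the matrix gene Mmp3, against 0.800% of all genes. Of 23 endothelial genes 0 were higher and 6 lower, with a median of -0.19. For endothelium, lower members numbered 10 without mouse RS10_727. Cldn5, the claudin of vessel junctions, measured 8.48, 10.9, 11.2, 11.3 and 15.6 CPM at 0% RPS and 7.12, 7.45, 7.69, 7.84 and 8.49 CPM at 10% RPS, a difference of -0.58 ± 0.16 (SE, edgeR adjusted p = 0.0998 and DESeq2 0.028), with mouse RS10_703 alone of the 0% RPS group within the 10% RPS range. Emcn, a sialomucin of capillaries and veins, and Tie1, a vascular receptor, differed by -0.44 ± 0.13 and -0.28 ± 0.10 (SE, edgeR adjusted p = 0.124 and 0.179), and Pecam1 and Cdh5 by -0.15 ± 0.09 and -0.12 ± 0.12 (SE, edgeR adjusted p = 0.459 and 0.688).

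Of 24 enteric neuron genes 1 was higher and 3 lower. For neurons, lower members numbered 7 without mouse RS10_727. Tubb3, the neuronal tubulin, and Calb2, calretinin, differed by -0.43 ± 0.15 and -0.41 ± 0.13 (SE, edgeR adjusted p = 0.168 and 0.152). Of 17 glial genes 2 were lower, with a median of -0.17. For glia, lower members numbered 8 without mouse RS10_727. S100b measured 4.64, 4.88, 4.91, 5.07 and 5.36 CPM at 0% RPS and 2.43, 2.48, 2.94, 4.22 and 5.33 CPM at 10% RPS, with mice RS10_729, RS10_731 and RS10_784 lowest, a difference of -0.52 ± 0.17 (SE, edgeR adjusted p = 0.149). The glial transcription factor gene Sox10 differed by -0.33 ± 0.17 (SE, edgeR adjusted p = 0.344).

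Smooth muscle held 0 of 23 genes at an unadjusted p of at most 0.05 in edgeR and 0 DESeq2 calls, with a median of -0.03. Myh11, the smooth muscle myosin heavy chain, averaged 2695 ± 614 and 2617 ± 376 CPM (SD, n = 5), a difference of -0.04 ± 0.18 (SE, edgeR adjusted p = 0.937). Among 29 fibroblast genes 2 were higher and 4 lower. For fibroblasts, higher members numbered 4 without mouse RS10_703, and lower members numbered 1 without mouse RS10_703, RS10_708 or RS10_729, 2 without mouse RS10_784 and 7 without mouse RS10_704. Grem1, a BMP antagonist of the crypt base fibroblasts, and Rspo1, a Wnt agonist, differed by 0.44 ± 0.14 and 0.69 ± 0.27 (SE, edgeR adjusted p = 0.148 and 0.236), while Dpt and Cd34 differed by -0.27 ± 0.10 and -0.27 ± 0.11 (SE, edgeR adjusted p = 0.232 and 0.252). Of 44 matrix genes 3 were higher and 0 lower, with a median of 0.11. Among matrix genes, higher members numbered 5 without mouse RS10_729 and 7 without mouse RS10_703, and lower members numbered 4 under the treatment label and 6 without mouse RS10_727. Mmp3, stromelysin, averaged 1.44 ± 0.603 and 3.51 ± 2.25 CPM (SD, n = 5), a difference of 1.29 ± 0.39 (SE, edgeR adjusted p = 0.124 and DESeq2 0.0309), and Timp1, its inhibitor, differed by 0.72 ± 0.28 (SE, edgeR adjusted p = 0.225). The median was 0.51 over 9 adipocyte genes and 1.32 over 4 mesothelial genes, which cover the outside of the gut, with none at an unadjusted p of at most 0.05 in edgeR and 0 DESeq2 calls.

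Lists that describe the state of the sample rather than a cell type were examined beside these. Ribosomal protein genes were lower in 29 of 81 and higher in 2, against 7.87% and 7.32% of all genes, with a median of -0.16 and 6 positive values. Rpl39 and, named after its value was seen, Rpl3 averaged 293 ± 18.6 and 803 ± 89.8 CPM at 0% RPS and 229 ± 19.9 and 653 ± 26.4 CPM at 10% RPS (SD, n = 5), with differences of -0.36 ± 0.08 and -0.30 ± 0.08 (SE, edgeR adjusted p = 0.071 and 0.103). The number of lower members was 2 under the treatment label, against 5.04% of all genes, 43 without mouse RS10_703, against 9.33%, and 13 without mouse RS10_708, against 5.05%. The clock gene Dbp, which follows the time of day, measured 9.53, 37.9, 40.1, 77.4 and 114 CPM at 0% RPS and 3.77, 10.3, 23.8, 44.2 and 59.6 CPM at 10% RPS, a difference of -0.97 ± 0.71 (SE, edgeR adjusted p = 0.549), and 0 of 19 clock genes were higher and 1 lower. Heat shock and unfolded protein genes were higher in 6 of 19 and lower in 1, with a median of 0.37 and Hspd1 at 0.47 ± 0.15 (SE, edgeR adjusted p = 0.154). For heat shock genes, higher members numbered 1 without mouse RS10_707 or RS10_708 or under the treatment label, 2 without mouse RS10_729 or RS10_784 and 3 without the 3 mice with disagreeing labels. Immediate early genes, which respond within minutes of handling, were higher in 4 of 23, with Fos at 0.41 ± 0.58 (SE, edgeR adjusted p = 0.796). For immediate early genes, higher members numbered 1 without mouse RS10_727 and 2 without mouse RS10_701, RS10_704 or RS10_708 or under the treatment label. Of the hypoxia targets 2 of 10 were higher and 2 lower. The pericyte list had 0 of 9 in either direction and 0 DESeq2 calls, and the interstitial cells of Cajal 0 higher and 1 lower of 5.

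Markers of neighbouring tissue were checked. Cela1 and Sycn made up most of the pancreatic list at 0% RPS, at averages of 519.9 ± 73.2 and 648 ± 129 CPM (SD, n = 5), whereas Pnlip, Cel and Cpb1 were near the floor. The list summed to 917 to 1340.0 CPM at 0% RPS and to 785 to 1590.0 CPM at 10% RPS, the highest in mouse RS10_784. Squamous genes of the anal skin summed to 152 to 288 CPM and 121 to 207 CPM, with 3 of 9 higher and 2 lower. Skeletal muscle genes had 0 of 7 at an unadjusted p of at most 0.05 in either direction and 0 DESeq2 calls. Their part in the results was not tested.

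**Figure D4:**
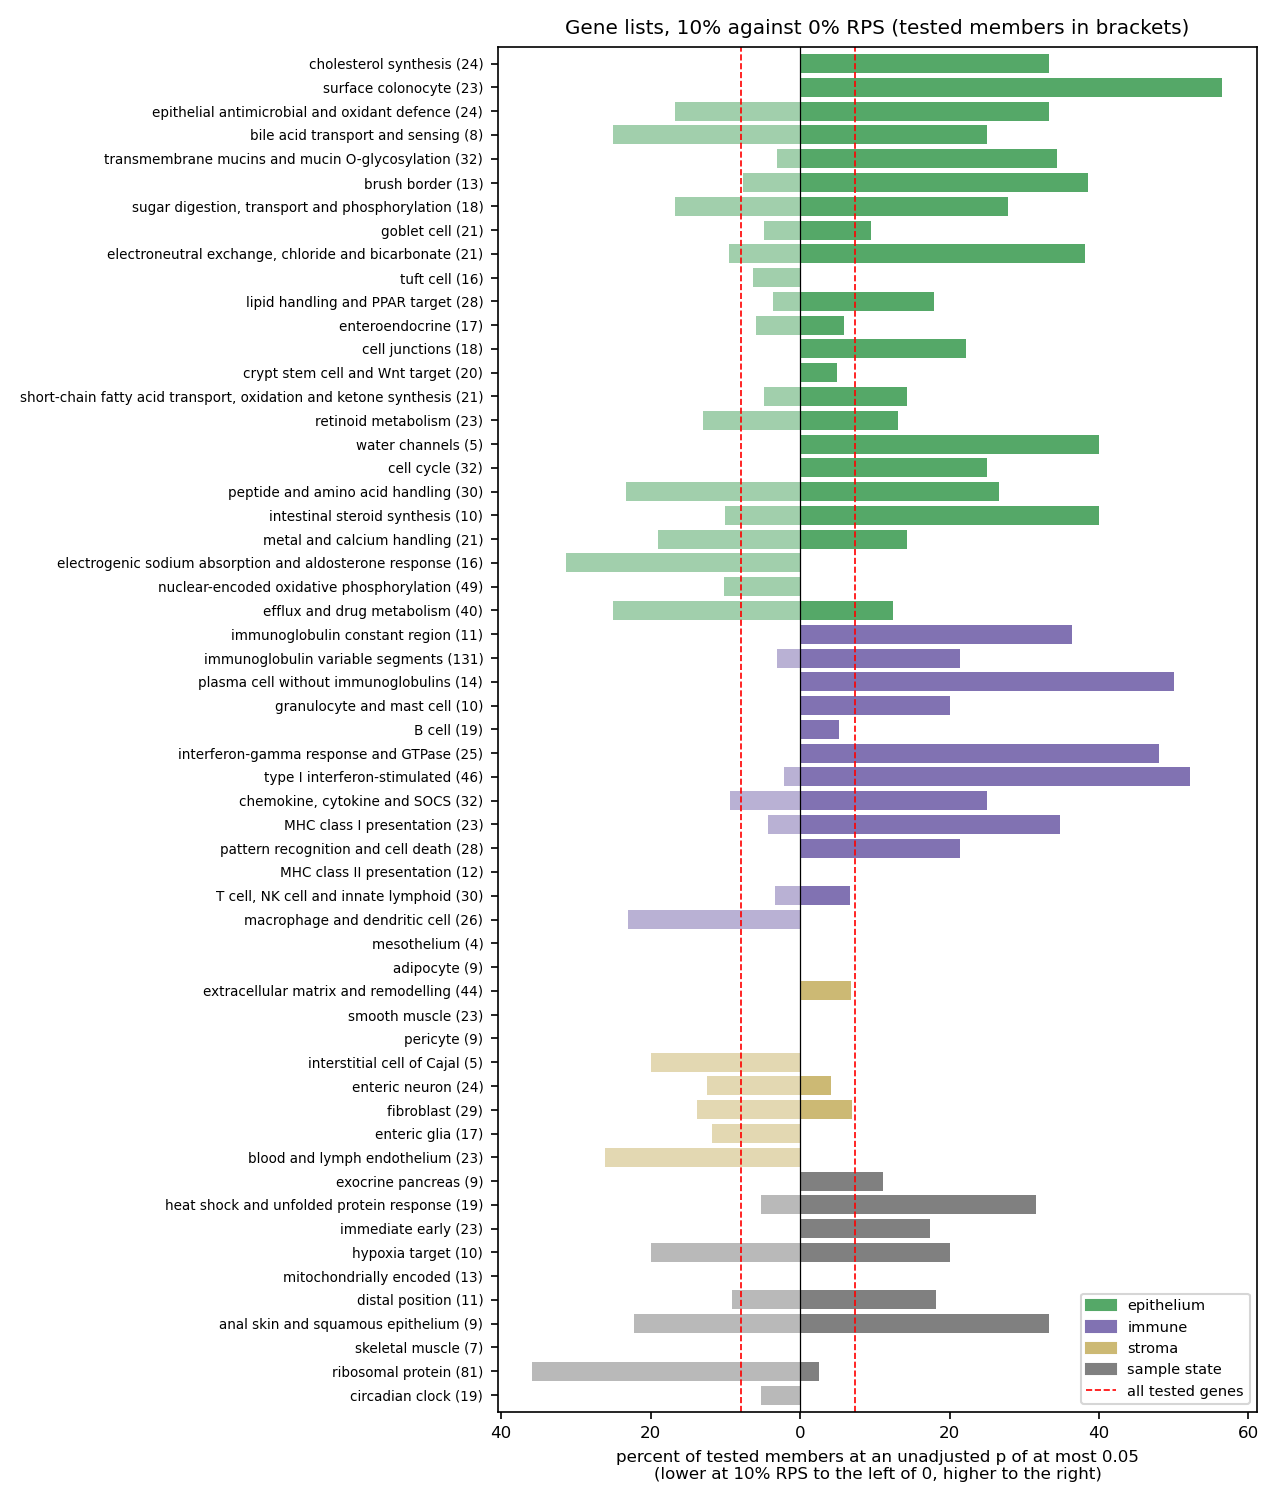
Percent of the tested members of each gene list at an unadjusted edgeR p of at most 0.05, lower at 10% RPS to the left of 0 and higher to the right, coloured by programme. Dashed lines mark the share over all tested genes, 7.87% lower and 7.32% higher. Surface colonocyte, interferon and plasma cell lists reach farthest to the right, and ribosomal protein, electrogenic sodium, endothelial and macrophage lists reach to the left with few or no higher members.

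Set side by side by mouse, list scores that kept the groups apart were few. The mean log2 CPM of the electroneutral list was 6.40 to 6.52 at 0% RPS and 6.62 to 6.88 at 10% RPS, and that of the water channel list, in which Aqp4 and Aqp8 were higher and 0 lower of 5, was 4.70 to 5.07 at 0% RPS and 5.07 to 5.44 at 10% RPS, with all 5 mice at 10% RPS above all at 0% RPS in both, by a narrow margin for the water channels. The electrogenic list gave 6.98 to 7.37 at 0% RPS and 6.64 to 7.09 at 10% RPS, with 4 of 5 mice at 10% RPS below every 0% RPS mouse. Its median log2 fold change was only -0.06, with 6 positive and 10 negative values and Scnn1g the lowest at -2.10. The summed CPM of this list overlapped, at 5050 to 6650 at 0% RPS and 5350 to 6290 at 10% RPS. Scores overlapped for plasma cells, endothelium at 3.72 to 4.20 at 0% RPS and 3.65 to 3.94 at 10% RPS, enteric glia at 3.05 to 3.31 at 0% RPS and 2.84 to 3.33 at 10% RPS and macrophages at 2.63 to 3.32 at 0% RPS and 2.84 to 3.17 at 10% RPS. Smooth muscle gave 7.74 to 8.35 at 0% RPS and 7.89 to 8.24 at 10% RPS. The lists were chosen with these results known, so the scores are a description and carry no test.

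**Figure D5:**
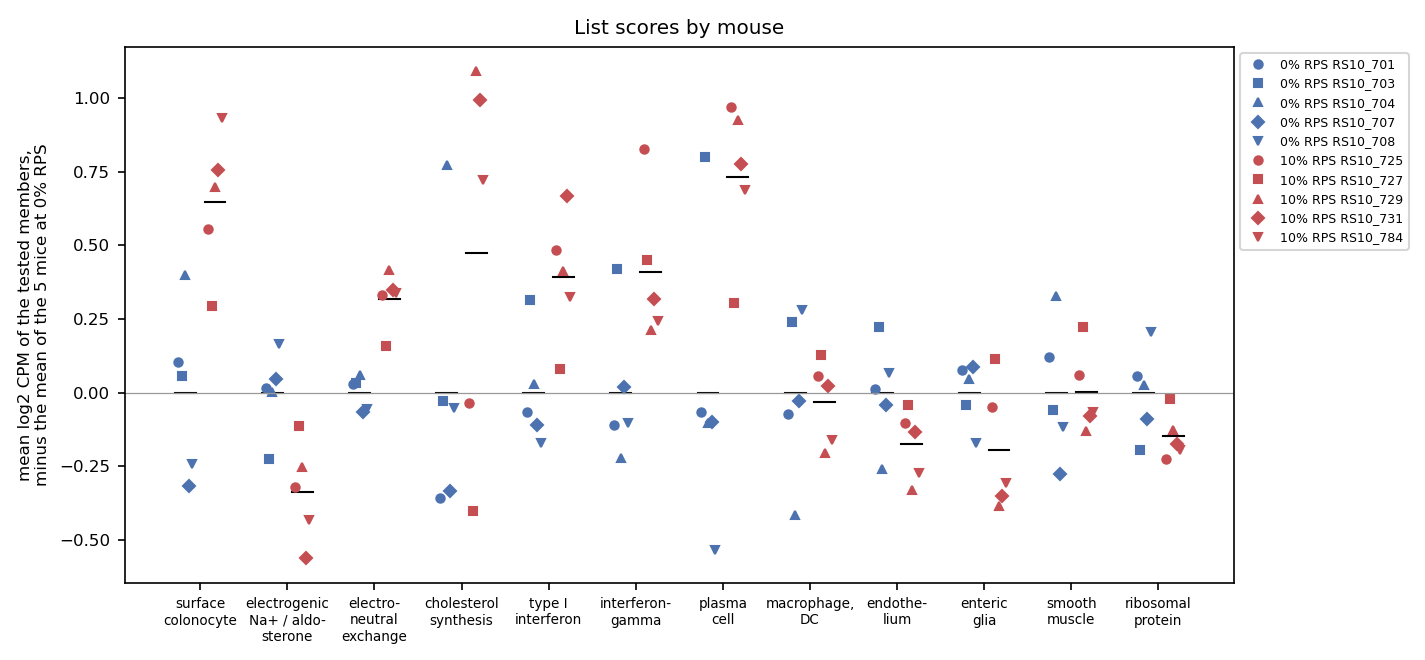
Mean log2 CPM of the tested members of 12 lists in each mouse, minus the mean of the 5 mice at 0% RPS, with a black bar at each group mean and 1 marker shape per mouse. The electroneutral scores of the 10% RPS mice all lie above those of the 0% RPS mice, while plasma cell, macrophage and smooth muscle scores overlap.

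By size alone, among genes with an unadjusted p of at most 0.05 and no overlap between groups, Slc9a3 had the largest positive difference and Klk15 the largest negative one. Klk15, a kallikrein-related serine protease, measured 3.07, 3.93, 6.28, 6.49 and 7.38 CPM at 0% RPS and 0.902, 1.32, 1.79, 1.9 and 2.88 CPM at 10% RPS, a difference of -1.64 ± 0.32 (SE, edgeR adjusted p = 0.0539 and DESeq2 0.000137). Mgat4c, a glycosyltransferase gene, measured 11.8, 12.8, 18.9, 32.5 and 38.4 CPM at 0% RPS and 39.6, 79.6, 83.8, 139.7 and 142 CPM at 10% RPS, a difference of 2.09 ± 0.48 (SE, edgeR adjusted p = 0.0825 and DESeq2 0.00322). Tchh, trichohyalin, Cyp2w1, an orphan cytochrome P450, and Sowaha differed by -1.41 ± 0.36, -1.32 ± 0.32 and -1.22 ± 0.29 (SE, edgeR adjusted p = 0.0861, 0.083 and 0.0821). Cyp2w1 measured 3.32, 4.08, 4.76, 7.05 and 7.53 CPM at 0% RPS and 1.55, 2.09, 2.27, 2.39 and 2.39 CPM at 10% RPS. Sfmbt2, a Polycomb group gene, and the non-coding gene Gm26801 differed by -1.0 ± 0.24 and -1.01 ± 0.28 (SE, edgeR adjusted p = 0.0821 and 0.103), and the predicted gene Gm5431 by 1.78 ± 0.37 (SE, edgeR adjusted p = 0.0659 and DESeq2 0.00128).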

How the data were processed

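Distal colon RNA of 20 C57BL/6 mice, 5 in each of 4 groups, was sequenced as single-end reads from stranded poly(A) libraries. Reads were quality filtered and mapped to GRCm39 with CLC Genomics Workbench 20.01 (per the labels), and the authors deposited raw counts per Ensembl gene, which were used unscaled. The strand setting and the handling of multi-mapping reads are not given in the sources used here, so close paralogs and overlapping genes are uncertain. Of 26619 genes in the table, 26338 matched GENCODE vM39, which gave symbols and positions.

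Groups followed the description label. Genes were kept by filterByExpr (minimum count 10), scaled by TMM and tested with edgeR 4.0.16 in R 4.3.3 (quasi-likelihood, robust) across all 20 mice, with Benjamini-Hochberg adjustment over 17893 genes. Calls needed both an adjusted p of 0.05 or less and a 1.5-fold difference or more. The SE of a log2 fold change was its size divided by the square root of F. DESeq2 1.42.0, which gave 8631 genes with a count no adjusted p, and limma 3.58.1 served as alternatives. The calling steps were also run on counts simulated from the means and dispersions of the fit itself. There edgeR recovered 31.3% of genes changed by 1.5-fold and 81.3% of those changed by 2-fold, with 1.1% of calls false. The simulated mice had no label errors and no effects shared between genes, so these shares cannot give the error of the calls made here. Total counts of 18429493 to 34974230 per mouse put 3 counts, the floor, at 0.0850 to 0.163 CPM in the groups compared, which covers counting error only.

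The 57 gene lists and their members were chosen with earlier results of these data known, so lists are described by counts and medians with no test. Some genes stand in more than 1 list, with 1178 entries for 1144 different symbols in the 54 hand-written lists. Counts of different lists are therefore not independent. Genes were named where called, where among the 8 largest positive or negative differences without overlap (p of at most 0.05, mean of at least 1 CPM), as the first 2 and the 4 smallest-p members of a list, or as sample checks. Any other gene is said to have been named after its value was seen. Symbols of the lists that were not matched are not analysed here, and a few tested members are counted but not reported by name. The smallest difference between libraries of a group was 14.7 chi-square per degree of freedom, so no library was treated as a duplicate.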

Additional observations from a re-analysis of the deposited data

Results flagged for a closer look

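Mice that stood far from the other 4 of their group, by Dixon's gap at the 95% level, were sought in 206 groups of values, and 10 were found where chance gives about 10.3. Mouse RS10_703 at 0% RPS held 0.6954% of its counts in immunoglobulin genes against at most 0.1468% in the others, 11.69 log2 CPM of Igha against 9.35 in the next mouse, and a hypoxia target list of 5.423 mean log2 CPM against 5.829 in the next mouse.

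Mouse RS10_707 at 0% RPS was lowest for the pericyte list, at 4.016 mean log2 CPM against 4.21 in the next mouse, and for the skeletal muscle list, at 1.052 against 1.38.

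Mouse RS10_727 at 10% RPS held 4.576 log2 CPM of Scnn1b against 3.642 in the next mouse, and 3.088 log2 CPM of Zbp1 against 4.703. Mouse RS10_784 at 10% RPS held 6.504 log2 CPM of Pnlip against -0.9831 in the next mouse, and an exocrine pancreas list of 6.302 mean log2 CPM against 2.115. Mouse RS10_731 at 10% RPS held a lipid handling list of 5.213 mean log2 CPM against 5.099.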

How the results depend on the processing

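The 7 genes called higher and 0 called lower became 139 and 71 with DESeq2, 90 and 52 with the edgeR likelihood ratio test, 65 and 41 with the adjusted p relaxed to 0.10, 11 and 1 without the fold threshold, 11 and 2 with RLE size factors, 14 and 3 with libraries thinned to the smallest total, and 22 and 8 with the smooth muscle score as a covariate. With Dbp as a covariate 15 genes were called higher, without the filter on low counts 1 gene was called lower, and with only the 10 mice in the fit 3 genes were called higher. With groups by the treatment label, and without the 3 mice with disagreeing labels, 0 genes were called higher, and without mice RS10_703 and RS10_725, an alternative chosen after seeing the data, 1 was. That gene was Apol9a, an apolipoprotein L gene with a close copy, and it was named after its value was seen. Leaving out 1 mouse gave 5 to 119 genes called higher and 0 to 69 called lower. The counts were 119 and 69 without mouse RS10_727, 63 and 46 without mouse RS10_703, and 34 and 25 without mouse RS10_704. At an unadjusted p of at most 0.05, 901 genes were lower by the treatment label, and leaving out 1 mouse gave 908 (without mouse RS10_708) to 1764. The causes were not tested.

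The 23 called genes and genes with the largest differences kept 1 sign over the 25 refits. In each of them the groups did not overlap, so a refit could hardly turn the sign, and this is no check of them. Of 8362 values of named genes, 149 had the other sign, and none of these went against an edgeR call. The medians of 14 of the 57 lists changed sign in at least 1 refit, among them water channels (-0.12 to 0.35), cell cycle (-0.11 to 0.27), retinoid metabolism (-0.07 to 0.07) and smooth muscle (-0.08 to 0.07). No paired analysis was possible because each mouse has a number of its own and the groups share none. At this depth the 3 lowest values of Reg3g at 0% RPS lay below the 3-count floor.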
